A study of Rattus norvegicus with 9 samples.

Results

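Nuclear leucine tRNA fragments are the short RNAs sequenced from rat islets whose host was given as a nuclear leucine tRNA (tRNA-Leu-). Every row with such a host was taken, mitochondrial leucine tRNAs were left aside, and each fragment sequence was kept once. This gave 18 sequences, from 26 rows, of the 192 distinct tRNA-derived fragments (tRFs) in the table of 255 rows. The islets came from 22-day-old male Sprague Dawley rats, whose mothers had been fed during gestation and lactation either a low-protein diet (LP, 5.3% protein, n = 4 rats) or a chow diet (CD, 16.8% protein, n = 5 rats). LP-exposed offspring serve as a model of a raised risk of diabetes, and the study asked which tRFs differ in their islets. Whether any of the rats were littermates is not stated, so a spread between samples may partly be one between or within litters. Whole islets hold several cell types. Fewer cells of a type and less fragment per cell cannot be told apart in them, and a table of tRFs holds no islet marker genes to check.

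A leucine tRNA carries leucine, a branched-chain amino acid taken from the diet, to the ribosome. Together with the serine tRNAs it stands out among nuclear tRNAs by a long variable arm between the anticodon stem and the T arm, the hairpin that leads to the 3' end. Every mature tRNA ends in CCA, which is not encoded in the gene but is added by the CCA-adding enzyme, and the amino acid is joined to its last A. A cut in the T loop frees a short 3' tRF that holds the last strand of the T arm, the 3' strand of the acceptor stem and the CCA end. In human and mouse cells a 3' fragment of tRNA-Leu-CAG is known to bind mRNAs of ribosomal proteins and to favour their translation. The base at position 58 of the T loop is often a methylated adenosine, one of the marks that the pretreatment of these RNA samples was meant to remove.

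Of the 18 sequences, 17 held the 3' part of a leucine tRNA and 1 did not. They fell into 3 types by the bases of the acceptor stem. The type of tRNA-Leu-CAG had 9 sequences, all listed for that host alone. A second type, shared by tRNA-Leu-CAA and tRNA-Leu-CAG, had 5 sequences, and the last type, shared by tRNA-Leu-AAG and tRNA-Leu-TAG, had 3. The 8 sequences of the shared types cannot be given to one of their 2 hosts. The 18-nucleotide (nt) member of each type is shown to compare them, with the bases at positions 66, 67 and 71 in capitals. Positions follow the standard tRNA numbering, in which the last A is 76.
tRNA-Leu-CAG 18a: atcccacTCctgAcacca
tRNA-Leu-CAA/CAG 18a: atcccacTTctgAcacca
tRNA-Leu-AAG/TAG 18: atcccacCGctgCcacca

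Against the tRNA-Leu-CAG sequence, the CAA/CAG type differed by C67T alone, and the AAG/TAG type by T66C, C67G and A71C, where the base of tRNA-Leu-CAG comes first. Names give the host of a tRF and then its length, and a letter in order of falling level tells apart tRFs with equal host and length. All 3 sequences begin at position 59, the base after the often methylated position 58.

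The 3' tRFs of up to 24 nt began at 7 different positions, 53, 54, 56, 57, 58, 59 and 61, all within or beside the T loop. Their 3' ends varied as well. The CCA end was complete in 11 members, the last A was missing in 4, which end in CC, and CA was missing in 2, which end in C. The tRNA-Leu-CAG type has all 3 kinds of end, shown here with what is left of CCA in capitals.
tRNA-Leu-CAG 19a: aatcccactcctgacaCCA
tRNA-Leu-CAG 19b: gaatcccactcctgacaCC
tRNA-Leu-CAG 18b: gaatcccactcctgacaC

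Of the 6 members with a shortened end, 5 began at position 57, where none of the 11 with a complete CCA began. Among these members a shortened end therefore went largely together with a start at position 57, and only 1 pair, described below, has a complete and a shortened end from the same start. Lengths of 18 and 19 nt were the most common, with 6 members each, and 17 of the 18 members had 16 to 24 nt.

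**Figure D1:**
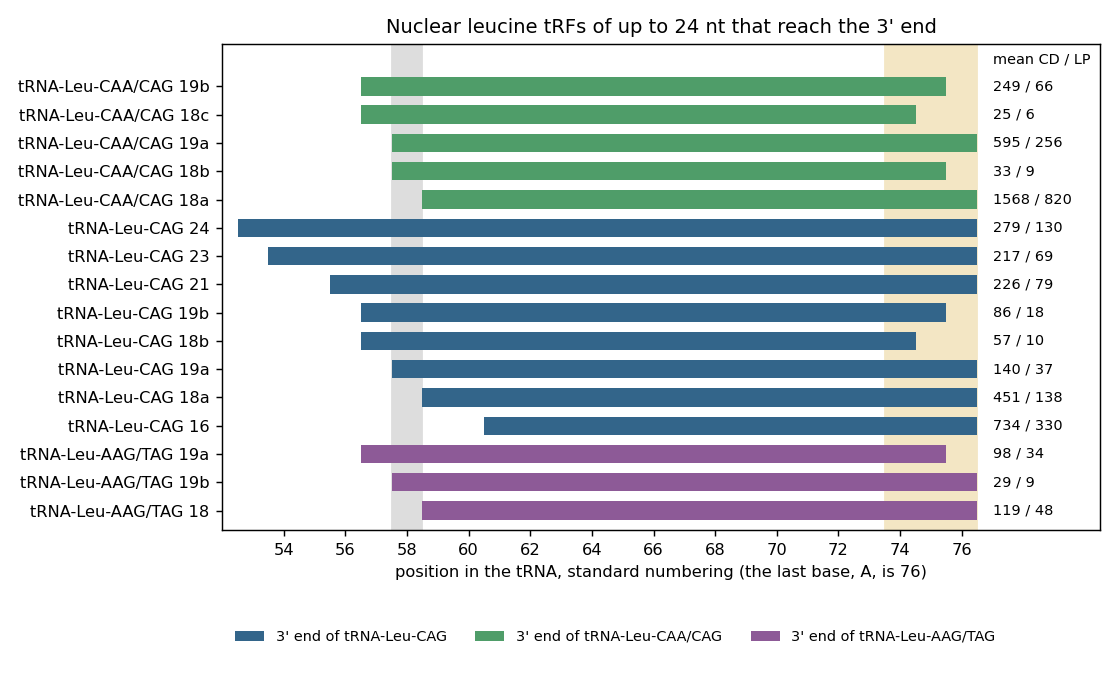
Extent of the 16 leucine 3' tRFs of up to 24 nt, by position in the tRNA (horizontal axis, standard numbering), coloured by the type of acceptor stem; grey marks position 58, beige the CCA end, and the values at the right are mean normalized read counts in CD and LP. Bars that stop before position 76 are the 6 members with a shortened end, and 5 of them start at position 57.

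The 2 remaining members lay elsewhere in the tRNA. tRNA-Leu-CAG 44 was the only long one, and reached from the CCA end back past the T loop. Its first base was not placed in the numbering, because the variable arm differs in length between tRNAs. tRNA-Leu-CAA 16 was the only member listed for tRNA-Leu-CAA alone and the only one without a 3' end. It matched 15 of 16 bases of tRNA-Leu-CAG 44, at its positions 9 to 24, with the single difference C9A. The 16 bases compared are in capitals, and the first of them is the one that differs.
tRNA-Leu-CAG 44: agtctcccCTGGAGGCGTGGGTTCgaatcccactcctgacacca
tRNA-Leu-CAA 16: ATGGAGGCGTGGGTTC

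Because many members are cut from one another's sequence, they are not independent. Of the 18, 12 lay whole inside a longer leucine tRF of the table, and 8 of them were inside tRNA-Leu-CAG 44. No leucine sequence lay inside a tRF of another host.

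The tRFs of the table had all been called as changed between these same samples by the authors, so the difference between LP and CD had already chosen the rows. Fold changes, counts of tRFs past a threshold and separations of the groups are given as a description of size, and are no independent evidence of a change. Levels are given as normalized read counts, for which each count was divided by the size factor that the authors had used for its library, from 0.625 in CD 1 to 1.80 in LP 4. Each read counts 1 fragment, so levels were not divided by length. Over the 192 tRFs a CD library held between 26166 and 34775 counts and an LP library between 12556 and 40166, of which 3897 to 4892 and 1048 to 4213 were leucine tRFs. The scaling matters for every level here, because the unscaled counts of CD and LP overlapped for all 18 leucine tRFs. Over the whole table, every LP sample lay below every CD sample in unscaled counts for 26 of the 192 tRFs (13.5%). With the libraries scaled by TMM over the table instead, 5 of the 18 were without overlap. The share over all tRFs was not counted with that scaling. Where groups of a single tRF are said not to overlap below, normalized read counts are meant.

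Leucine tRFs were lower in LP islets. Summed per sample, they came to 6236, 5385, 3540, 5162 and 4828 normalized read counts in CD 1 to CD 5, and to 1436, 2333, 2287 and 2344 in LP 1 to LP 4. All LP samples lay below all CD samples, and LP 1 was the lowest. The means were 5030 ± 982 (SD, n = 5) and 2100 ± 443 (SD, n = 4), a 2.40-fold difference. It was 1.52-fold with the libraries scaled by TMM over the table, where the groups did not overlap either, and 1.65-fold in unscaled counts, where they did. As a share of the counts of the table, leucine tRFs made up 15.0% ± 2.25 in CD and 11.9% ± 3.00 in LP, and the samples overlapped.

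**Figure D2:**
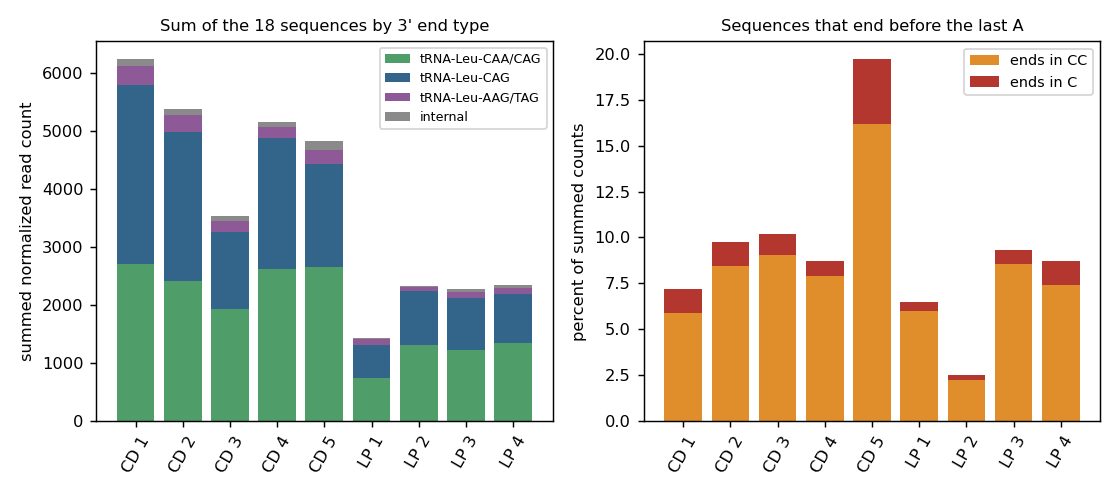
Left, summed normalized read counts of the 18 leucine tRFs in each sample (bars from 0), divided by type of acceptor stem. The internal fragment is shown apart. Right, percent of the summed leucine counts held by sequences that end in CC or C. The 4 LP sums, 1436 to 2344, are all below the 5 CD sums, 3540 to 6236, and CD 5 has the highest share of shortened ends.

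A short sequence led the 18 leucine tRFs of the table in every sample. Leucine fragments that the authors did not call are not part of this ranking. tRNA-Leu-CAA/CAG 18a, which starts right after position 58, was the most abundant of the 18 in all 9 samples. It was counted at 1738, 1427, 1280, 1720 and 1677 normalized read counts in CD 1 to CD 5, and at 556, 991, 817 and 916 in LP 1 to LP 4. The groups did not overlap, and the CD samples lay close together. Its log2 fold change in edgeR's quasi-likelihood fit was -0.93 ± 0.37 (SE, adjusted p = 0.0241), the smallest of the tested leucine tRFs. It was also the smallest under all 15 other settings and left-out samples. With TMM over the table it was -0.30, with an edgeR adjusted p of 0.385.

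The next most abundant was tRNA-Leu-CAG 16, the shortest 3' tRF, which starts at position 61. Its levels were 795, 636, 453, 1118 and 668 normalized read counts in CD 1 to CD 5, and 223, 418, 343 and 337 in LP 1 to LP 4. No LP sample reached the lowest CD sample, CD 3. The log2 fold change was -1.15 ± 0.40 (SE), and -0.95 without CD 4, its highest sample.

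tRNA-Leu-CAA/CAG 19a carries 1 base more at its 5' end than the leading sequence and so includes position 58. It had 784, 735, 450, 608 and 397 normalized read counts in CD 1 to CD 5, and 141, 289, 279 and 315 in LP 1 to LP 4. LP 1 was far below the other LP samples, and all LP samples were below the CD samples. The mean fell from 595 ± 170 (SD, n = 5) to 256 ± 78.2 (SD, n = 4), with a log2 fold change of -1.21 ± 0.40 (SE).

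tRNA-Leu-CAG 18a, the counterpart of the leading sequence in the CAG type, had 672, 604, 229, 400 and 351 normalized read counts in CD 1 to CD 5. In LP 1 to LP 4 it had 78.1, 154, 138 and 181. The groups did not overlap, though CD 3 was closer to LP 4 than to the other CD samples. The mean fell from 451 ± 183 to 138 ± 43.4, a log2 fold change of -1.71 ± 0.44 (SE, edgeR adjusted p = 0.00399), and -1.03 with TMM over the table (edgeR adjusted p = 0.0249).

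tRNA-Leu-CAG 24, the longest of the short members, starts at position 53, at the end of the T stem. Its levels were 328, 323, 248, 284 and 211 normalized read counts in CD 1 to CD 5, and 95.9, 144, 168 and 111 in LP 1 to LP 4. The groups of this tRF stayed apart in normalized read counts, but overlapped with TMM over the table. Its log2 fold change of -1.10 ± 0.37 (SE) was the second smallest, and with TMM over the table it was -0.45 (edgeR adjusted p = 0.201).

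tRNA-Leu-CAA/CAG 19b was the most abundant member with a shortened end, CC. It had 150, 178, 180, 240 and 496 normalized read counts in CD 1 to CD 5, and 31.5, 27.9, 104 and 99.0 in LP 1 to LP 4. CD 5 was more than 2 times as high as any other sample, and LP 1 and LP 2 were well below LP 3 and LP 4. The log2 fold change was -1.91 ± 0.54 (SE), and -1.50 without CD 5.

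The 2 largest falls among the tested members were in tRNA-Leu-CAG 18b and tRNA-Leu-CAG 19b, which start at position 57 and lack CA or the last A. tRNA-Leu-CAG 18b, which ends in C, had 67.2, 50.6, 25.8, 28.1 and 112 normalized read counts in CD 1 to CD 5, and 2.74, 2.99, 9.64 and 23.9 in LP 1 to LP 4. LP 1 and LP 2 rested on 2 and 3 counts, and LP 4, with 43 counts, was just below the lowest CD sample. Its log2 fold change was -2.42 ± 0.66 (SE, edgeR adjusted p = 0.00473). It was -3.35 without LP 4 and -2.003 without CD 5, where tRNA-Leu-CAG 19a fell the most, and without LP 1 tRNA-Leu-CAG 44 did.

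tRNA-Leu-CAG 19b, the same fragment with 1 more C, had 86.4, 106, 51.5, 66.9 and 122 normalized read counts in CD 1 to CD 5, and 9.59, 8.97, 23.4 and 31.7 in LP 1 to LP 4. The groups were apart, and the LP samples again split into a lower and a higher pair. Its log2 fold change was -2.19 ± 0.50 (SE), and -1.56 with TMM over the table, with edgeR adjusted p-values of 0.00292 and 0.00972. tRNA-Leu-CAA/CAG 18c, the C-ended sequence of the shared type, followed with -2.09 ± 0.51 (SE). That was -1.50 without CD 5, a sample where it stood at 57.9 normalized read counts while CD 1 to CD 4 had 14.4 to 20.9.

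tRNA-Leu-CAG 44 was the scarcest member. It had 13, 12, 14, 4 and 6 counts in CD 1 to CD 5 and 2, 1, 3 and 6 in LP 1 to LP 4, and did not pass the filter on low counts. In normalized read counts these were 20.8, 13.2, 11.6, 4.32 and 6.20 in CD, and 2.74, 0.997, 2.06 and 3.34 in LP. The groups did not overlap, but CD 4 and LP 4 differed by less than 1 normalized read count. Without the filter its log2 fold change was -2.17 ± 0.50 (SE). tRNA-Leu-CAA 16, the internal fragment, was measured with 739 counts in all, and its mean level was 114 ± 25.8 over the CD rats (SD, n = 5) and 38.5 ± 20.2 over the LP rats (SD, n = 4).

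**Figure D3:**
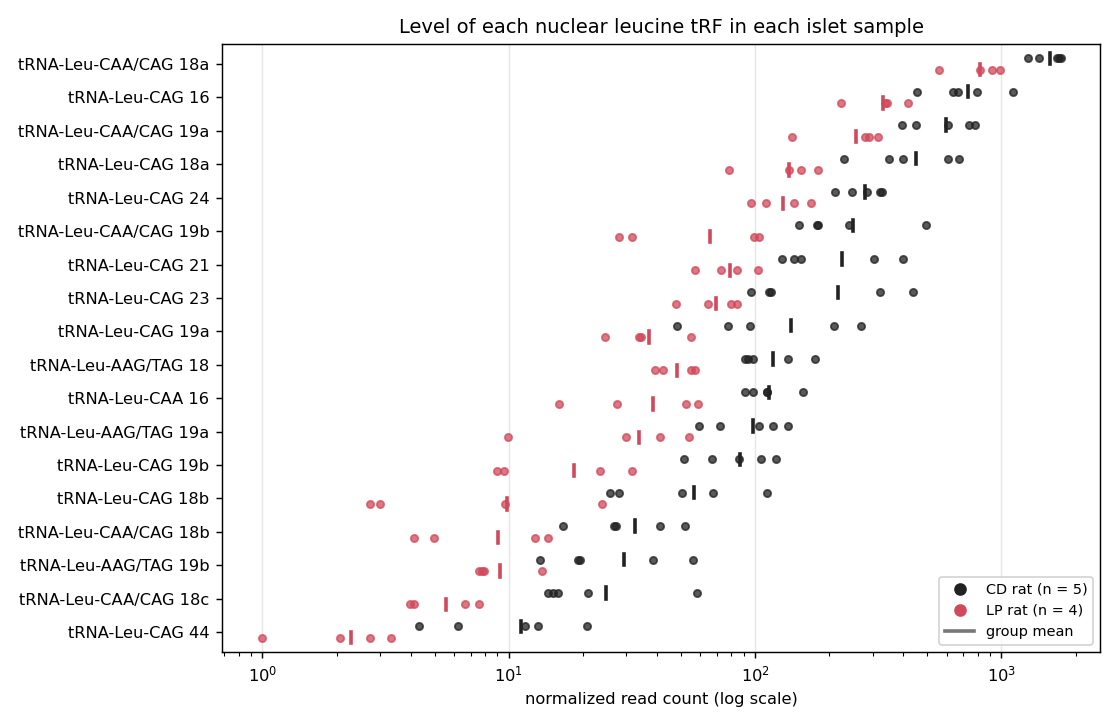
Normalized read count (log scale) of each of the 18 leucine tRFs in each sample, with CD rats in black, LP rats in red and group means as vertical ticks. The groups are apart for 16 members and overlap for tRNA-Leu-CAG 19a and tRNA-Leu-AAG/TAG 19b.

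The other members covered the range between these. tRNA-Leu-CAG 21 and tRNA-Leu-CAG 23 start within the T loop, at positions 56 and 54, and had similar levels. Their CD means were 226 ± 120 and 217 ± 154 (SD, n = 5), and their LP means 79.5 ± 19.4 and 69.2 ± 16.6 (SD, n = 4). CD 1 and CD 2 were the highest for both, and the spread among CD rats was several times that among LP rats. tRNA-Leu-CAG 19a showed the same pair on top, at 270 and 209 normalized read counts, with 48.2 to 94.9 in CD 3 to CD 5. CD 3, at 48.2, was below LP 4, at 55.1, so that its groups overlapped. Without CD 1, the log2 fold change of tRNA-Leu-CAG 23 was -1.22, against -1.64 ± 0.52 (SE) with all samples.

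Among the members, the AAG/TAG type was scarce. tRNA-Leu-AAG/TAG 18 averaged 119 ± 36.2 normalized read counts over the CD rats (SD, n = 5) and 48.4 ± 8.84 over the LP rats (SD, n = 4). tRNA-Leu-AAG/TAG 19a, which ends in CC, averaged 98.0 ± 31.8 and 33.7 ± 18.5. tRNA-Leu-AAG/TAG 19b had 13.4 to 56.0 in CD and 7.57 to 13.7 in LP, where LP 1 reached above CD 5. tRNA-Leu-CAA/CAG 18b, with 200 counts in all, had 16.6 to 51.7 in CD and 4.11 to 14.5 in LP.

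Summed by type, the tRNA-Leu-CAG sequences came to 2201 ± 680 normalized read counts over the CD rats (SD, n = 5) and to 814 ± 163 over the LP rats (SD, n = 4), a 2.70-fold difference. The CAA/CAG type came to 2469 ± 316 and 1156 ± 285, a 2.14-fold difference, and the leading sequence held most of it. The AAG/TAG type came to 246 ± 68.7 and 91.4 ± 11.5, a 2.69-fold difference. Sums of the types were given no test.

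In edgeR's quasi-likelihood test, the thresholds of 2-fold and an adjusted p of 0.05 were passed by 16 of the 17 tested leucine tRFs as lower in LP, and by none as higher. The exception was tRNA-Leu-CAA/CAG 18a, which passed the p but not the fold. Among all 181 tRFs tested, 56.4% were lower and 41.4% higher by the same rule. Levels of LP lay below those of CD without overlap in 16 of the 18 leucine tRFs, against 47.9% of the table. The median log2 fold change was -1.64 for the leucine tRFs and -1.49 over all tRFs tested, which mixes tRFs of both directions. Over the 106 tested tRFs with a negative log2 fold change it was -1.92, a larger fall than that of the leucine tRFs. The choice of rows had used this contrast, so nothing is read from these counts.

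The number past the threshold depended on the scaling of the libraries. Of the 17, 7 were lower with TMM over the table, where 38.8% of all tRFs were, and 9 had an unadjusted p under 0.05. DESeq2 with size factors taken from the table left 6 of 18 lower, and 31.8% of all tRFs. None of the fits gave a leucine tRF a positive log2 fold change. TMM moved the median of all tRFs from -1.49 to -0.79, and that of the leucine tRFs from -1.64 to -0.93. Relative to the table's own median, which mixes both directions, the leucine median was thus -0.15 with either scaling. Over the tRFs with a negative log2 fold change alone, the median with TMM was -1.25, again a larger fall than that of the leucine tRFs. The 7 members that passed with TMM included 5 of the 6 with a shortened end, and tRNA-Leu-CAG 18a and tRNA-Leu-CAG 19a with a complete one.

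**Figure D4:**
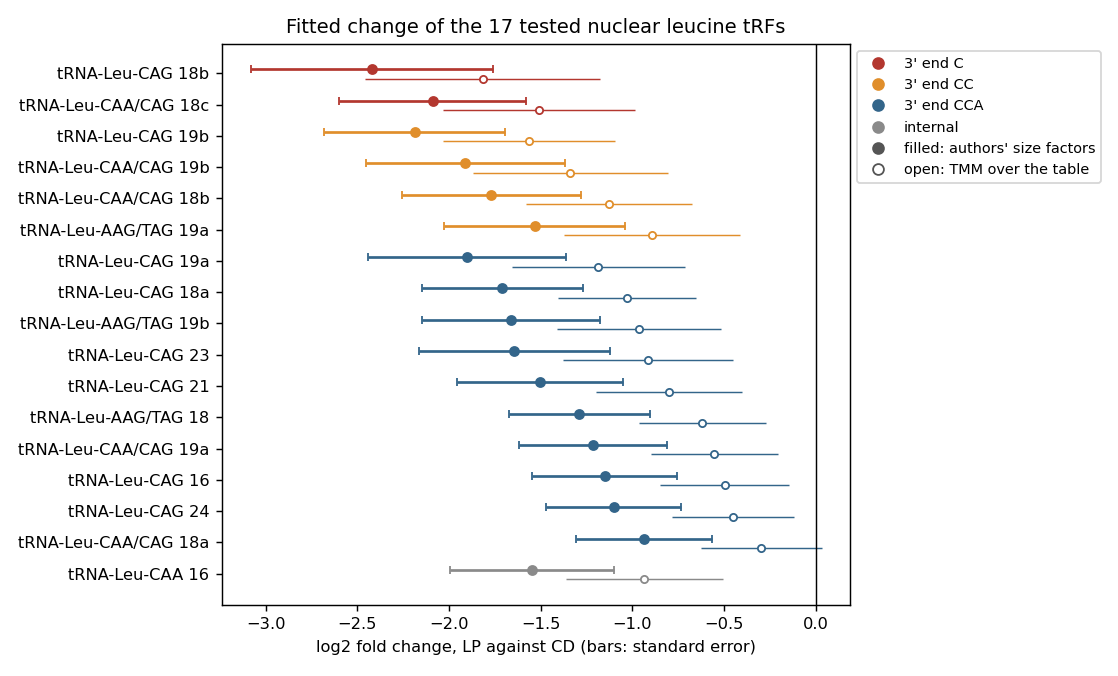
Log2 fold change of LP against CD, with its standard error, for the 17 tested leucine tRFs, grouped by 3' end; filled points use the authors' size factors and open points TMM over the table. All points are below 0, those that end in C or CC lie from -2.42 to -1.53 with the authors' size factors, and those that end in CCA from -1.90 to -0.93.

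The size of the fall differed between kinds of 3' end. The 6 members that end in CC or C had log2 fold changes of -2.42 to -1.53, with a median of -2.001, and the 10 tested members with a complete CCA had -1.90 to -0.93, with a median of -1.40. This grouping was chosen after the values were seen and was given no test. Its direction was the same in all 16 fits, with a difference of medians between -0.95 and -0.16. The fits reuse the same libraries, and a change of scaling shifts all members by similar amounts, so this agreement is no separate evidence. The smallest difference was that without CD 5, so that this library held much of it. In CD 5, sequences ending in CC or C made up 19.7% of the summed leucine counts. In CD 1 to CD 4 they made up 7.21%, 9.75%, 10.2% and 8.71%, and in LP 1 to LP 4 6.49%, 2.52%, 9.30% and 8.71%, so that apart from CD 5 the groups largely overlapped.

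Only 1 pair of members shared a start and differed by the last A alone, tRNA-Leu-CAA/CAG 18b and tRNA-Leu-CAA/CAG 19a, both from position 58. The one without the A made up 5.23% ± 1.62 (SD, n = 5) of the pair in CD and 3.34% ± 1.39 (SD, n = 4) in LP, and the samples overlapped. Of the sequences from position 57 that lack at least the A, the part ended in C rather than CC was larger in the CAG type than in the shared type. tRNA-Leu-CAG 18b made up 37.4% ± 7.93 of its pair with tRNA-Leu-CAG 19b in CD and 29.8% ± 9.22 in LP. tRNA-Leu-CAA/CAG 18c made up 8.74% ± 1.89 of its pair with tRNA-Leu-CAA/CAG 19b in CD and 9.29% ± 3.19 in LP. In each of the 9 samples the share was higher in the CAG pair, from 22.2% to 47.8%, than in the other, from 5.93% to 12.5%. The shares of LP 1 and LP 2 rest on few counts and are imprecise. There tRNA-Leu-CAG 18b had 2 and 3 counts, tRNA-Leu-CAG 19b 7 and 9, and tRNA-Leu-CAA/CAG 18c 3 and 4.

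Shares within the 18 leucine tRFs do not depend on the scaling of the libraries, and 7 of them were compared between LP and CD with a two-sided exact permutation test. Both parts of each share come from rows that this same contrast had chosen. The p-values are therefore a description and no independent evidence of a change. Leucine fragments that the authors did not call are missing from every share. The leading sequence tRNA-Leu-CAA/CAG 18a made up 31.7% ± 4.29 (SD, n = 5) of the summed counts of the 18 leucine tRFs in CD rats and 39.0% ± 2.76 (SD, n = 4) in LP rats. Its share had p = 0.0317 in the exact permutation test, and an adjusted p of 0.222 over the 7 shares. This sequence also had the smallest fall of the tested leucine tRFs, which its higher share in LP restates. LP 3, at 35.7%, was below CD 3, at 36.2%. Sequences with a complete CCA end made up 86.6% ± 5.50 of the CD counts and 91.4% ± 3.88 of the LP counts. The difference was 4.83 percentage points, 2.46 without CD 5 and 3.04 without LP 2 (exact permutation test with all samples, p = 0.175, adjusted p = 0.259). Those listed for tRNA-Leu-CAG alone made up 43.0% ± 5.76 and 38.9% ± 1.79 (exact permutation test, p = 0.222), and those shared by 2 anticodons 54.7% ± 5.25 and 59.3% ± 1.72 (exact permutation test, p = 0.190). Without CD 1 the first of these differences went from -4.13 to -2.55 percentage points. Both changed sign once the leading sequence was left out, to 1.05 and -0.60 percentage points. The shares of tRNA-Leu-CAA 16 and of tRNA-Leu-CAG 44, and so that of the short members, differed by less than the samples of a group did (exact permutation tests, adjusted p = 0.429 for the first and 0.259 for the others).

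Grouped by where they start, the fragments from position 59 took up 42.8% ± 1.96 of the leucine counts in CD and 47.8% ± 3.40 in LP, those from position 58 15.6% ± 3.37 and 14.6% ± 1.60, and those from position 61 14.6% ± 4.02 and 15.7% ± 1.53 (SD, n = 5 and n = 4). For position 59, 3 of the 4 LP samples lay above every CD sample, and LP 3 was within their range. Starts at position 57 took up 10.5% ± 4.96 in CD and 6.34% ± 2.89 in LP, with 19.1% in CD 5. These shares were given no test.

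Related tRFs gave a mixed picture beside these. Of the other tRFs of 16 to 24 nt with a CCA end from nuclear hosts, 33 of 37 passed the same thresholds as lower and 1 as higher in LP, with a median log2 fold change of -1.76. Of the 3 such tRFs of other hosts that end in CC or C, 2 were lower and 1 higher. The serine tRNAs, which share the long variable arm, had 7 tRFs lower and 5 higher of 12, with a median of -1.88. Isoleucine and valine, the other branched-chain amino acids, had 1 of 5 nuclear tRFs lower and 4 higher, with a median of 2.19. The mitochondrial leucine tRNAs had 3 tRFs, of which both tested ones were lower. With TMM over the table, 20 of the 37 short CCA-ended tRFs of other hosts were lower, with a median of -1.06, and the counts of the serine, the isoleucine and valine and the mitochondrial leucine tRFs stayed as they were. These lists were set side by side without a test.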

How the data were processed

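Small RNA libraries of rat islets (5 CD, 4 LP) were made from total RNA pretreated to free fragment ends and remove base methylations. The authors annotated tRFs against tRNA gene collections, required at least 2 reads in individual samples, compared the groups with DESeq2 and deposited the called tRFs only. The aligner, build and any use of molecular tags: not given in the sources used here. Deposited counts are whole reads per sequence and sample, unscaled. The second deposited set of columns, headed as normalized counts, lies on a log2 scale. DESeq2's variance-stabilising transformation was fitted to it with residuals of at most 5.7e-05, which gave the authors' size factors. The authors' own fold changes, adjusted p-values and direction marks were not used.

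Rows were collapsed by sequence. All distinct tRFs were fitted in edgeR 4.0.16 under R 4.3.3 by quasi-likelihood (library sizes set by the authors' size factors; minimum count of 10; Benjamini-Hochberg adjustment over 181 tRFs). Standard errors were taken as the size of each log2 fold change over the square root of F. Shares were compared with two-sided exact permutation tests over 126 splits (scipy 1.17.1), adjusted over 7 shares. Alternatives were TMM, DESeq2 1.42.0, no filter, a replicate block and leaving out each sample. Values in every sample are given for the 6 leucine tRFs with the highest mean, the 2 largest and 2 smallest falls among those tested, and any over 24 nt. The others are given by range or mean, with single samples where they stand out. Members, lists and tests were chosen with earlier results of these data known. p-values cover the spread between these samples. Counts under about 10 are imprecise from counting error alone.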

Additional observations from a re-analysis of the deposited data

Results flagged for a closer look

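The levels of the 18 leucine tRFs, their sum and the 7 shares were searched, group by group, for a highest or lowest sample set off from the next by most of the group's whole spread, with levels on a log scale. This made 52 sets of values, of which 6 had such a sample, where chance gives about 2.6. The sets overlap, since the sum and the shares are built from the same counts.

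LP 1 stood apart in 3 of them. Its summed leucine level was 1436 normalized read counts, with 2287 to 2344 in LP 2 to LP 4, and tRNA-Leu-CAA/CAG 19a was at 141, with LP 2 to LP 4 at 279 to 315. tRNA-Leu-AAG/TAG 19b was instead highest in LP 1, at 13.7 against 7.57 to 7.97, a value that rests on 10 counts. LP 1 had the lowest total of the table, at 12556 counts. The share of tRFs listed for tRNA-Leu-CAG alone was lowest in LP 4, at 36.2% against 39.6% to 39.98% in LP 1 to LP 3.

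CD 5 stood apart in its 3' ends. Sequences with a complete CCA end made up 77.1% of its leucine counts, against 87.2% to 91.0% in CD 1 to CD 4, and tRNA-Leu-CAA/CAG 18c, which ends in C, was at 57.9 normalized read counts, while CD 1 to CD 4 had 14.4 to 20.9.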

How the results depend on the processing

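Scaling decided how many leucine tRFs passed. The 16 called lower became 7 with TMM over the table and 6 with DESeq2 when its size factors came from these tRFs, and the median log2 fold change went from -1.64 to -0.93 and -0.78. Of all tRFs, 71 of 183 were lower with TMM and 61 of 192 with the latter fit, against 102 of 181. The 2.40-fold fall of the summed level was 1.52-fold with TMM and 1.65-fold in unscaled counts. Without the most abundant sequence, the differences of the shares of tRFs listed for tRNA-Leu-CAG alone and of shared tRFs, -4.13 and 4.60 percentage points, became 1.05 and -0.60. Of the 17 tested members, 9 lost their call with TMM and 11 with that DESeq2 fit, and none changed direction under any setting.

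Leaving out each sample in turn gave 15 to 18 leucine tRFs lower, with medians of -1.79 to -1.50 and a 2.17 to 2.57-fold fall of the sum, and 94 to 110 of all tRFs lower and 75 higher. tRNA-Leu-CAG 16 lost its call without CD 4 (-0.95) and tRNA-Leu-CAG 24 without LP 1 (-0.98), each by falling under 2-fold, while tRNA-Leu-CAA/CAG 18a reached it without LP 2 (-1.04). Without the filter 17 of 18 leucine tRFs were lower, and so they were by DESeq2 with the authors' size factors. Each of these fits also had 112 of all 192 tRFs lower and 76 higher. For same-numbered CD and LP samples, the correlations of their deviations were -0.40, 0.08, 0.06 and 0.01, and no CD sample correlated best with its own number. Whether same-numbered samples shared a litter or a batch is not stated, and these values cannot show it. With the replicate block, 16 leucine tRFs and 101 of all tRFs were lower. When CD 5 was left out as well, a fit added after seeing the data, these were the same 16 and 94 of all tRFs. The leading sequence had an edgeR adjusted p of 0.0649 with the replicate block and all samples, and of 0.0611 with CD 5 left out as well. The table's 9 libraries hold called tRFs only, and fragments that did not pass are not analysed here.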
